A study of Homo sapiens with 4 samples.

Results

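Prostaglandins are local lipid messengers made by fibroblasts and many other cells. Cyclooxygenases (PTGS1, the constitutive form, and PTGS2, the inducible form) turn arachidonic acid into a common precursor, terminal synthases convert that precursor into PGE2 or prostacyclin, and G protein-coupled receptors at the cell surface read the product. In lung fibroblasts PGE2 is known for raising cyclic AMP through the receptors EP2 and EP4 and for restraining proliferation and collagen production. The 10 genes described here are 2 cyclooxygenases (PTGS1, PTGS2), 3 PGE2 synthases (PTGES, PTGES2, PTGES3), the prostacyclin synthase PTGIS, the PGE2 receptors EP2 (PTGER2) and EP4 (PTGER4), the receptor of prostaglandin F (PTGFR) and HPGD, the dehydrogenase that inactivates prostaglandins. They were found by gene symbol, all 10 among the 26255 genes of the files. They were chosen by role from a table in which their FPKM in miRs and control had already been seen, so the comparison of those groups is a description for these genes and no p-value is given for any of them.

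The cells were MRC5, an established line of fibroblasts from human fetal lung, labelled as wild type. The 2 control libraries carry the treatment label no, and the 2 libraries of the other group carry the treatment label miRs, with transfection of microRNAs given as the design. All titles read 48 h and also carry the code nor, and the control titles carry the code P. Neither code is explained in the labels used here. Neither the microRNAs nor a dose is named, and the series title mentions a negative-control microRNA that the label of the control samples does not, so what the control cells received is not known. Levels were given as FPKM (fragments per kilobase of transcript, scaled for depth), a unit per length in which levels of different genes can be set side by side. Nothing states that replicates were separate cultures, so their spread may be technical.

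The absolute depth of the libraries is unknown. From steps among genes under 0.3 FPKM, 1 fragment was worth 1.05 times as much FPKM for control replicate 2 as for control replicate 1, and for miRs replicates 1 and 2 the factors were 0.90 and 1.02. All 12 fibroblast markers reached a mean of 1 FPKM, and their summed level was 12151 to 13028 FPKM in control and 8380 to 12963 FPKM in miRs. Of these 12, 6 lay below and 1 above both controls (30.0% and 29.5% of all genes averaging at least 1 FPKM). The list's median was −0.62 on the log2 scale. Of 9 blood and macrophage markers only CD68 reached a mean of 1 FPKM (53.8 and 57.6 FPKM in control against 130.2 and 41.9 FPKM). CD3E and ITGAM were listed at 0 in every library. Of 6 endothelial markers only TEK reached that mean. The 8 epithelial markers summed to 28.9 and 31.8 FPKM in control against 186 and 264 FPKM, with ESRP1 and GRHL2 listed at 0 throughout and CDH1 at or under 0.0356 FPKM. The 20 interferon response genes summed to 61.6 and 76.8 FPKM in control, and to 11758 FPKM in the first and 2158 FPKM in the second miRs library. Each of the 20 lay above both controls in the pair of miRs libraries (29.5% of all genes averaging at least 1 FPKM did). The 7 smooth muscle markers, a contractile program that fibroblasts can share, summed to 773 and 519 FPKM in control against 216 and 209 FPKM. Of these 7, 5 lay below and 2 above both controls (30.0% and 29.5% of all genes averaging at least 1 FPKM). The part of the fibroblast, epithelial, interferon and smooth muscle genes in any value below was not tested.

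The sequences in front of 3 members differ in the short motifs they hold. PTGS2 and PTGS1 are printed because they make the same product and behaved differently here, and PTGER2 as the most abundant of the receptors. Each is the 250 bases before the start of transcription, taken by symbol from RefSeq (build GRCh38.p14, not the hg19 of the files), read in the gene's direction. Capitals mark matches, on either strand, to a TATA box (TATAAA), a cyclic AMP response half-site (TGACG) or the NF-kB consensus. For PTGS1 the first of its 2 listed starts is shown.
PTGS2, GRCh38.p14 chr1:186680424-186680673, minus strand: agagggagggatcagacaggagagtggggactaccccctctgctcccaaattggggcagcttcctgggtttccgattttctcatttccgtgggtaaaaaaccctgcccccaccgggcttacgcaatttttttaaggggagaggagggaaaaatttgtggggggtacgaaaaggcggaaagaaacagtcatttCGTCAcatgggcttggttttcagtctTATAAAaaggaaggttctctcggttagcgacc
PTGS1, GRCh38.p14 chr9:122370283-122370532, plus strand: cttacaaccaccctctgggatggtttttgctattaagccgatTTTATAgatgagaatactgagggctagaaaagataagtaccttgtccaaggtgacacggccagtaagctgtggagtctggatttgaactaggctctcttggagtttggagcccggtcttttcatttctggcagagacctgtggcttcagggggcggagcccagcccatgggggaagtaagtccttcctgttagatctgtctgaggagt
PTGER2, GRCh38.p14 chr14:52314062-52314311, plus strand: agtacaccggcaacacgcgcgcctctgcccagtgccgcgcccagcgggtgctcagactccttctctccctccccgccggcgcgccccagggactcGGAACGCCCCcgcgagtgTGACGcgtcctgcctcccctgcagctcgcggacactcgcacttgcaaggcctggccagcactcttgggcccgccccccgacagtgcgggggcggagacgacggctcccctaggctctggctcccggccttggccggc

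PTGS2 held a TATA box 32 to 27 bases before its start and a cyclic AMP half-site, on the reverse strand, 58 to 54 bases before it. The window of PTGS1 held a reversed TATA motif, 208 to 203 bases before the start, and that of its other start held none of the motifs. PTGER2 held a forward half-site 137 to 133 bases and a reversed NF-kB match 155 to 146 bases before its start. PTGER4 and PTGES3 held an NF-kB match, PTGES3 also a half-site, and PTGES, PTGES2 and PTGFR none. HPGD held a half-site in the window of 1 start and an NF-kB match in that of its other start. Sequences of 9 members were found, all but PTGIS. The TATA motif was in 2 of the 9 genes, where 10.7% of 35116 promoter windows of this length hold it. The half-site was in 4 of 9 (21.2% of windows), the NF-kB consensus in 4 of 9 (9.96%) and the core of the interferon response element in 0 of 9 (3.02%). Members with several starts had more than 1 window in which to match. A match describes the letters only. The patterns were strict, so a site that departs from them in any letter was not marked. The lack of a mark, as for NF-kB in the PTGS2 window, is therefore not read as the lack of a site.

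The 3′ untranslated region of PTGS2 is known for AU-rich elements, repeats of ATTTA through which RNA-binding proteins such as ZFP36 and ELAVL1 set how long the messenger lasts. Its first 30 bases after the stop codon are shown because they hold 3 overlapping copies, in capitals.
PTGS2, bases 1 to 30 of the 3′ untranslated region: aagtctaatgatcatATTTATTTATTTAta
In the longest region annotated by GENCODE 29, PTGS2 had 22 copies of ATTTA (forward strand, overlaps counted) in 2562 bases, a number reached by 2.68% of the 10802 tested genes with a region, whose median was 2. PTGER4 had 9 copies in 1357 bases and PTGFR 7 in 3319 bases. PTGES3 had 6 in 1136 bases and PTGER2 5 in 1152 bases. PTGS1 had 3 in 3159 bases, PTGES had 1 in 1280 bases and PTGES2 had 0 in 452 bases. The motif was picked for this description after the expression values had been seen.

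In control cells the constitutive enzymes and EP2 made up most of what was measured. PTGES3, a PGE2 synthase that also serves as a co-chaperone of HSP90, averaged 101.8 ± 4.79 FPKM (SD, n = 2 libraries here and for each mean below). PTGS1 followed at 44.2 ± 3.50 FPKM, PTGER2 at 38.9 ± 0.947 FPKM and PTGES2, a membrane-associated PGE2 synthase, at 31.2 ± 0.468 FPKM. Then came a group at low levels: PTGFR at 3.48 ± 0.694 FPKM, PTGES, the inducible microsomal PGE2 synthase, at 2.81 ± 0.0227 FPKM and PTGER4 at 2.68 ± 0.0748 FPKM. PTGS2 was at 0.243 ± 0.116 FPKM. No neighbours in this order had overlapping control libraries, but PTGES and PTGER4 were only 0.0602 FPKM apart and PTGFR and PTGES 0.164 FPKM, gaps smaller than the SD of PTGER4 and of PTGFR.

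PTGIS and HPGD were listed at 0 in all 4 libraries. Since the depth is unknown and an estimate can fail, a listed 0 is not read as absence of the transcript. No fold is given for PTGIS or HPGD, and they are left out of the comparisons that follow.

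**Figure D1:**
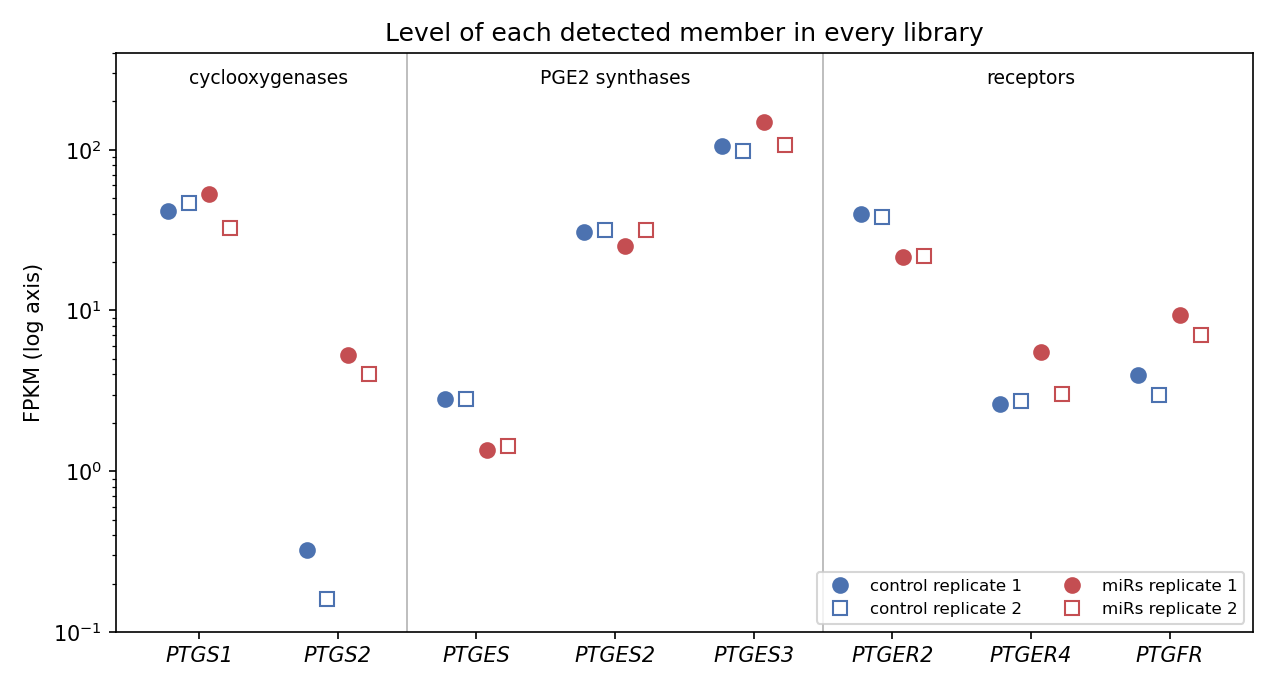
FPKM (log axis) of the 8 members above 0 in each library, grouped by role, with blue for control, red for miRs, filled circles for replicate 1 and open squares for replicate 2. PTGS2 lies at 0.161 and 0.325 FPKM without and 4.05 and 5.26 FPKM with the miRs, while the PTGS1 libraries of the 2 groups overlap.

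The largest difference among these genes was in PTGS2. It was at 0.325 and 0.161 FPKM in the first and second control library and at 5.26 and 4.05 FPKM in the first and second miRs library. The groups were far apart. The miRs libraries of PTGS2 lay 1.30-fold and its controls 2.02-fold apart, against medians of 1.24 and 1.10 over all tested genes. The mean was 19.2-fold higher in miRs, with single pairs of libraries between 12.4-fold and 32.7-fold, a fold that rests on very low control values. On the log2(FPKM + 1) scale the difference was 2.18 ± 0.20 (SE), which understates a change from so low a level. PTGS2 had the lowest control level of the 8 detected members and ranked the sixth in miRs, where its libraries overlapped those of PTGER4. As in all such bulk RNA, a change in the share of cells that make a transcript and a change per cell cannot be told apart.

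PTGS1 did not separate the groups. It was at 41.7 and 46.7 FPKM in the first and second control library and at 53.1 and 32.4 FPKM in the first and second miRs library, so 1 miRs library lay above both controls and the other below both. The log2 difference was −0.09 ± 0.26, and without miRs replicate 2 it was 0.26. PTGS2 made up 0.773% and 0.343% of the summed cyclooxygenase FPKM in the controls and 9.02% and 11.1% in miRs replicates 1 and 2. PTGS1 thus stayed the more abundant transcript in every library. The sum of the 2 cyclooxygenases was 42.1 and 46.9 FPKM in the controls against 58.4 and 36.4 FPKM, and overlapped.

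The 3 PGE2 synthases differed in direction. PTGES, the enzyme usually induced together with PTGS2, was at 2.80 and 2.83 FPKM in the first and second control library and at 1.35 and 1.44 FPKM in the first and second miRs library. It was 2.02-fold lower in miRs (log2 difference −0.67 ± 0.16), and the spread within each group was small next to the gap, opposite in direction to PTGS2. PTGES2 was at 30.8 and 31.5 FPKM in the controls against 25.2 and 31.6 FPKM, with overlapping groups (log2 difference −0.14 ± 0.16). Without miRs replicate 1 that difference was 0.02. Its antisense transcript PTGES2-AS1 was at 0.388 and 0.408 FPKM against 0.155 and 0.133 FPKM, low beside PTGES2, though whether the strand was used in counting is not given in the sources used here. PTGES3 was at 105.2 and 98.4 FPKM without and 149 and 107.0 FPKM with the miRs. Its lower miRs library lay only 1.02-fold above the higher control, and the log2 difference was 0.31 ± 0.20. PTGES3 has processed pseudogenes that can take up reads, which makes its level uncertain. PTGES, the rarest of the 3, made up 2.02% and 2.13% of their summed FPKM in control and 0.769% and 1.02% in miRs.

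**Figure D2:**
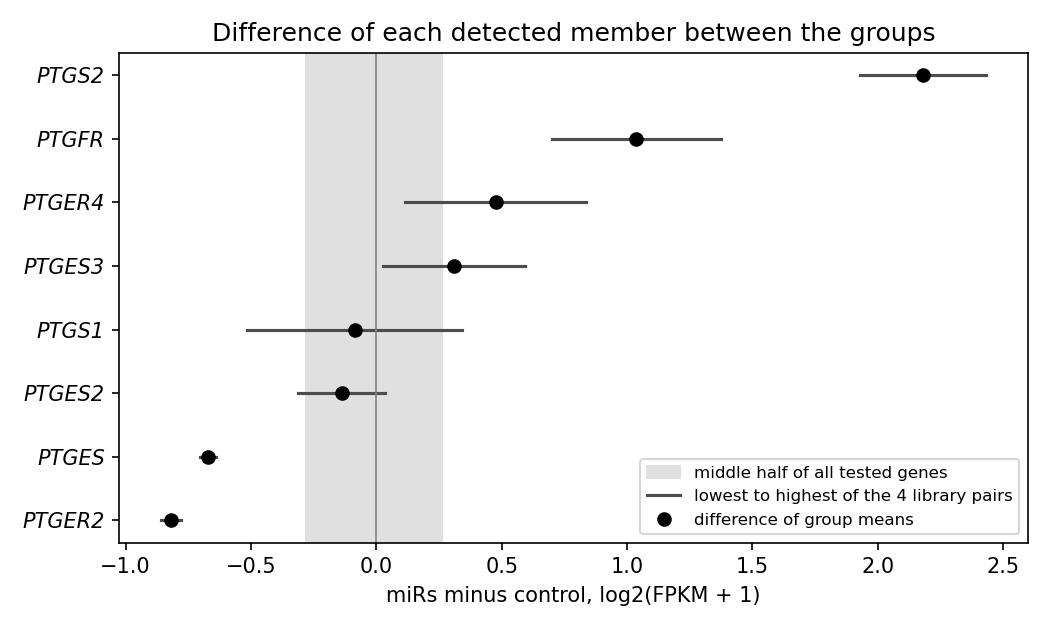
Difference between miRs and control in log2(FPKM + 1) for the 8 members above 0, with a point for the difference of group means, a line from the lowest to the highest of the 4 pairs of libraries, and a grey band for the middle 50% of all tested genes (−0.28 to 0.26). PTGS2 and PTGFR lie to the right of the band and PTGES and PTGER2 to the left with every pair, while the lines of PTGER4, PTGES3, PTGS1 and PTGES2 enter it.

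The receptors also went in opposite directions. PTGER2, which couples to Gs and raises cyclic AMP, was at 39.6 and 38.3 FPKM in the first and second control library and at 21.4 and 21.9 FPKM in the first and second miRs library. Within each group the libraries agreed to within 1.04-fold, and the mean was 1.80-fold lower in miRs (log2 difference −0.82 ± 0.12). PTGER4, the other Gs-coupled PGE2 receptor, was at 2.63 and 2.74 FPKM in the controls against 5.49 and 3.04 FPKM. The miRs libraries lay above both controls but 1.80-fold apart from each other, and the log2 difference was 0.48 ± 0.27. PTGFR, the receptor of prostaglandin F, which couples to Gq and calcium release, was at 3.97 and 2.99 FPKM without and 9.35 and 7.08 FPKM with the miRs. It was 2.36-fold higher on average (log2 difference 1.04 ± 0.20), with single pairs from 1.78-fold to 3.12-fold.

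EP2 stayed the most abundant of the 3 receptor transcripts in all 4 libraries, with a smaller share of them in miRs. PTGER2 held 85.7% and 87.0% of the summed receptor FPKM in control replicates 1 and 2 and 59.0% and 68.4% in miRs replicates 1 and 2. PTGFR held 8.60% and 6.80% in control and 25.8% and 22.1% in miRs, and PTGER4 5.69% and 6.22% against 15.2% and 9.50%. The sum of the 3 was 46.2 and 44.0 FPKM in the controls against 36.2 and 32.0 FPKM.

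**Figure D3:**
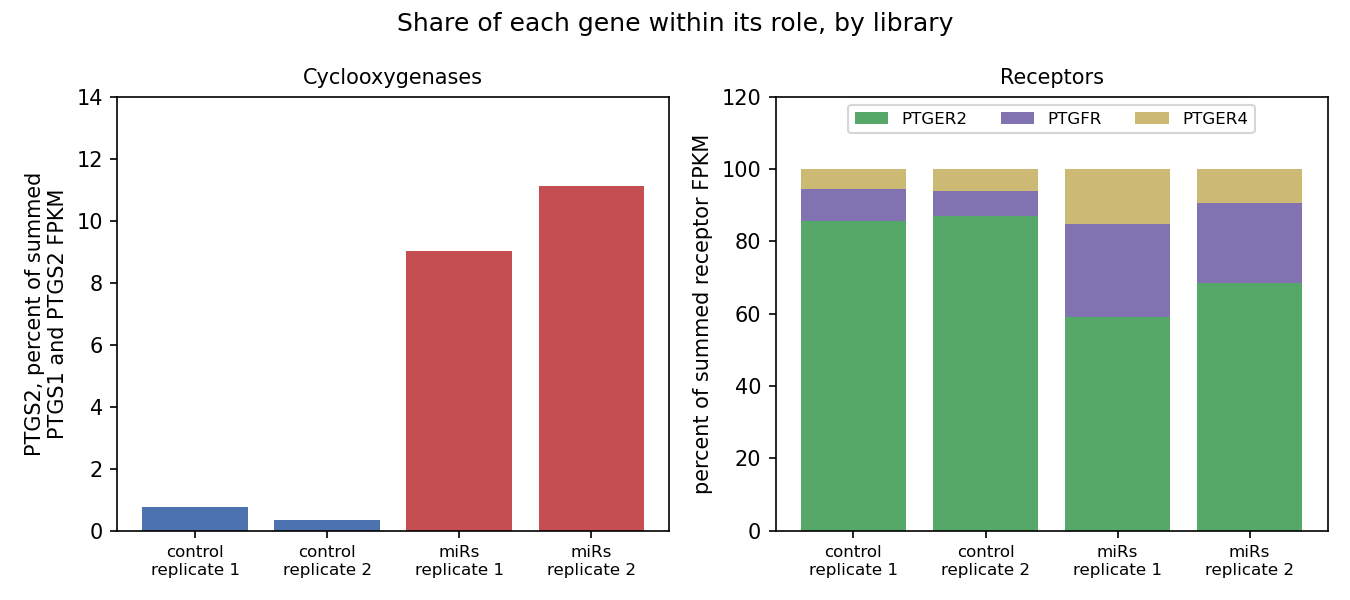
Left, PTGS2 as a percentage of the summed FPKM of PTGS1 and PTGS2 in each library, and right, the percentages of the summed receptor FPKM held by PTGER2, PTGFR and PTGER4. PTGS2 is under 1% in both controls and at 9.02% and 11.1% in miRs, and the PTGER2 share is 85.7% and 87.0% in control and 59.0% and 68.4% in miRs.

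In all, 4 members lay above both controls in both miRs libraries (PTGS2, PTGFR, PTGER4, PTGES3) and 2 below (PTGES, PTGER2). Of the 11860 genes averaging 1 FPKM or more, 29.5% were higher in this way and 30.0% lower. The 8 members at that mean had a median log2 difference of 0.11, against −0.002 for all tested genes, and a median size of difference of 0.57 against 0.27. Over all 10 the median was 0.00. PTGS2 reached the minimum only through its miRs libraries. In limma, 0 of the 8 passed an adjusted p of 0.05 (0.245% of all tested genes did) and 4 had an unadjusted p under 0.05 (24.2% of all). Without miRs replicate 1, 3 of 8 passed (18.6% of all genes) and without miRs replicate 2, 6 of 8 (33.1% of all), the remaining miRs library then being assumed to vary like the controls. Nothing is read from these counts, because the members were picked with this contrast known.

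The 2 miRs libraries lay closer together for the members than for the interferon genes. Dividing the first miRs library by the second gave 1.30 for PTGS2, 1.32 for PTGFR, 0.977 for PTGER2 and 0.941 for PTGES. It was 1.39 for PTGES3, 1.64 for PTGS1, 1.80 for PTGER4 and 0.796 for PTGES2. For the 20 interferon genes it ran from 1.86 to 35.3 with a median of 5.34. All 8 members thus lay below the lowest interferon gene. Over all tested genes the higher miRs library was 1.24 times the lower at the median, and the higher control 1.10 times the lower. The miRs libraries of PTGES2 (1.26-fold), PTGS2, PTGFR, PTGES3, PTGS1 and PTGER4 were further apart than that median gene. Those of PTGER2 and PTGES were closer. The members were thus close together only beside the interferon list.

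**Figure D4:**
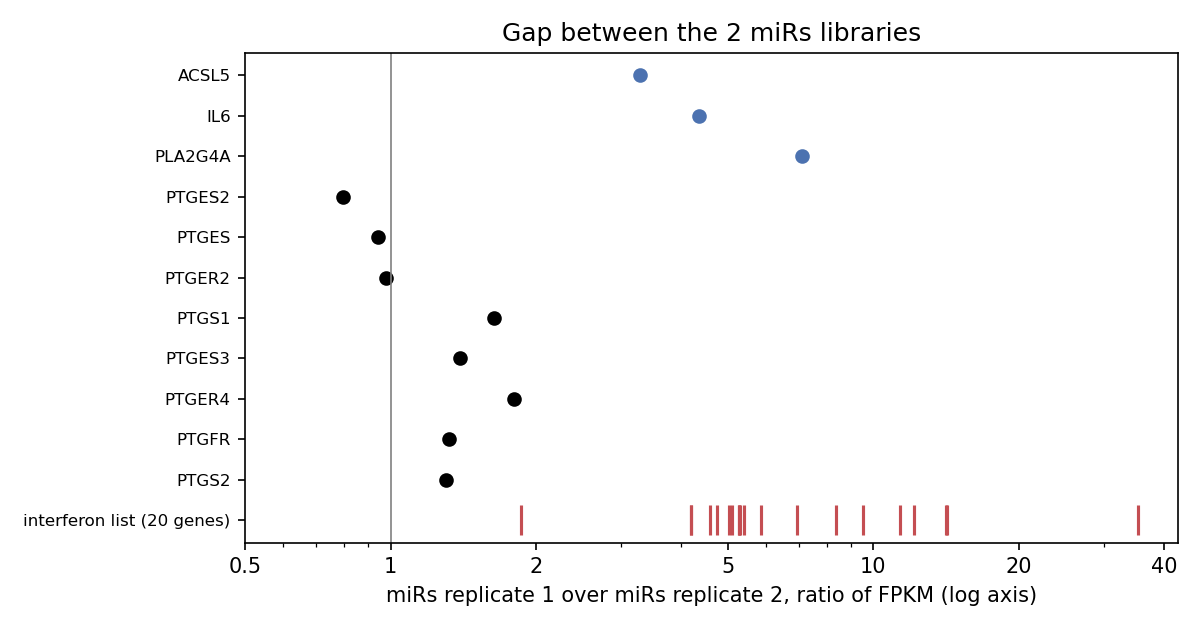
FPKM in miRs replicate 1 divided by FPKM in miRs replicate 2 (log axis), with black points for the 8 members, blue points for 3 other genes of the pathway and red ticks for the 20 interferon genes. The members lie between 0.796 and 1.80, the interferon genes between 1.86 and 35.3, and PLA2G4A, IL6 and ACSL5 at 7.13, 4.36 and 3.28. These 3 pathway genes were picked by hand with their values known and do not stand for the other pathway genes.

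The other genes of the pathway were read from 10 lists ordered by role, 125 genes in the files, of which 83 reached the minimum. The lists were chosen with earlier results of these data known. The limma p-values given for their genes, here and below, are therefore descriptions and not tests of lists fixed beforehand. With adjustment over all genes in limma, 0 of the 83 passed (0.245% of all tested), and 21 had an unadjusted p under 0.05 (24.2% of all). Both miRs libraries lay above both controls for 21 and below for 25 of the 83 (29.5% and 30.0% of all). The count of calls hung on the miRs libraries: without miRs replicate 1, 23 of 81 passed (28.4%, against 18.6% of all genes) and without miRs replicate 2, 34 of 81 (42.0%, against 33.1%). Of the 17 genes that passed in both of these fits, 16 had the same direction in both, 6 higher and 10 lower. The same 2 control libraries entered both fits, so the directions are not independent and nothing is read from their agreement. HAS2, a hyaluronan synthase, was the gene whose direction differed. It had 47.1 and 34.2 FPKM in control against 86.1 and 19.5 FPKM, and is named after its values were seen.

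Supply of arachidonic acid depends on phospholipases that release it and on enzymes that return it to membranes. PLA2G4A, the cytosolic phospholipase that feeds the cyclooxygenases, was at 0.392 and 0.475 FPKM in the controls against 7.94 and 1.11 FPKM. The means differed 10.4-fold, but the miRs libraries lay 7.13-fold apart, and the adjusted p in limma was 0.256. PLA2G4A reached the minimum only through its miRs libraries, so its fold rests on low control values. ANXA1, a phospholipase inhibitor, was at 352 and 304 FPKM against 549 and 418 FPKM (adjusted p = 0.183 in limma). The release list had 9 tested genes with a median log2 difference of −0.03. Of these, 2 lay above both controls and 1, the secreted phospholipase PLA2G12A, below (29.5% and 30.0% of all). Of 9 genes for activating, desaturating and esterifying the fatty acid, 3 lay above and 3 below both controls (29.5% and 30.0% of all). ACSL3 and LPCAT3, which load fatty acids onto coenzyme A and lysophospholipids, were 1.98-fold and 1.96-fold higher (adjusted p = 0.0863 and 0.102 in limma). ACSL5, which also reached the minimum only through its miRs libraries, was at 0.354 and 0.438 FPKM against 5.53 and 1.68 FPKM. ACSL1 was 1.72-fold lower.

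Among the other synthases, TBXAS1, which makes thromboxane, was at 5.17 and 4.26 FPKM without and 1.84 and 1.40 FPKM with the miRs, 2.91-fold lower (adjusted p = 0.0809 in limma). AKR1B1, an aldo-keto reductase that can form prostaglandin F, was at 91.5 and 88.3 FPKM against 120.5 and 144.9 FPKM (adjusted p = 0.129). CBR1, a carbonyl reductase, overlapped between the groups. None of the 3 other prostanoid receptors at the minimum, PTGER1, PTGIR and TBXA2R, separated the groups. Of 5 tested transport and inactivation genes 1 lay above both controls and 3 below (29.5% and 30.0% of all). The transporter SLCO3A1 was 1.79-fold higher, and the efflux pump ABCC4 1.36-fold, the reductase PTGR2 1.64-fold and ZADH2 1.18-fold lower, with adjusted p from 0.284 to 0.486 in limma. PTGR1, the reductase that takes over after HPGD, was at 81.2 and 91.3 FPKM against 65.7 and 122 FPKM. Of 17 genes of the lipoxygenase branch 6 were listed at 0 in every library and 4 were tested. Among these LTB4R2, a leukotriene receptor, was 2.14-fold higher and MGST3, a glutathione transferase, 1.16-fold lower. LTB4R2 reached the minimum only through its miRs libraries.

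Downstream of EP2 and EP4, 9 of 18 tested signalling genes lay below both controls and 1 above (30.0% and 29.5% of all), with a median log2 difference of −0.22. The 9 include PDE4A and ARRB2, which limit the signal, and CREB1, which was only 1.08-fold lower. The count therefore gives no direction for the pathway. ADCY6, an adenylyl cyclase, was at 16.1 and 15.6 FPKM in the controls against 7.13 and 8.41 FPKM (adjusted p = 0.0731 in limma). ADCY7, another cyclase, was the 1 above, at 6.21 and 7.62 FPKM against 10.2 and 15.9 FPKM (adjusted p = 0.155). The catalytic subunit PRKACB of protein kinase A was at 9.57 and 9.43 FPKM against 6.14 and 6.11 FPKM (adjusted p = 0.102), and the regulatory subunit PRKAR2B was 1.77-fold lower (adjusted p = 0.235). Of 9 tested genes that answer to cyclic AMP or mediate that answer, 3 lay above and 3 below (29.5% and 30.0% of all). The clock gene PER1 was 3.55-fold, the phosphatase DUSP1 1.93-fold and the coactivator CRTC2 1.58-fold lower, and the repressor and activator gene CREM 1.36-fold higher, with adjusted p from 0.0903 to 0.312 in limma.

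Of 8 tested genes that induce PTGS2, 3 lay above both controls and 2 below (29.5% and 30.0% of all). RELA, the transactivating subunit of NF-kB, was at 35.5 and 36.1 FPKM without and 15.4 and 12.0 FPKM with the miRs, 2.62-fold lower (adjusted p = 0.0632 in limma). EGR1, an immediate early factor, was at 26.0 and 30.0 FPKM against 3.22 and 12.8 FPKM (adjusted p = 0.151). The interleukin-1 receptor IL1R1 was at 9.87 and 11.4 FPKM against 19.3 and 21.2 FPKM (adjusted p = 0.0809), and IL6 at 3.01 and 3.25 FPKM against 26.9 and 6.18 FPKM (adjusted p = 0.202). Proteins that bind AU-rich elements and other regulators of the PTGS2 messenger all reached the minimum. Of the 12, 6 lay above both controls and 2 below (29.5% and 30.0% of all), with a median log2 difference of 0.09. ZFP36L1 and ZFP36L2, which speed decay of such messengers, were 1.54-fold and 1.57-fold higher, ZFP36 1.17-fold higher and ELAVL1, which stabilizes them, 1.20-fold lower (adjusted p from 0.120 to 0.355 in limma). RBM3 differed by 1.06-fold.

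**Figure D5:**
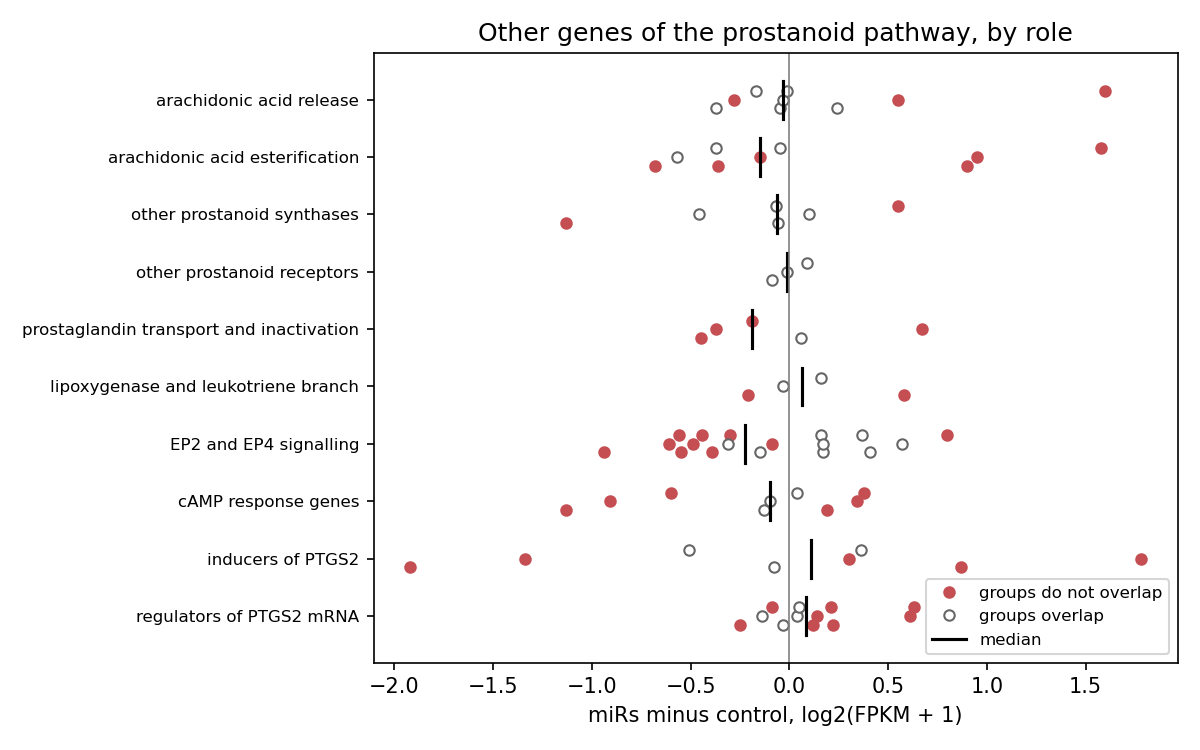
Difference between miRs and control in log2(FPKM + 1) of the 83 tested pathway genes, 1 row per list, with red points where the groups do not overlap, open points where they do and a black bar at the list's median. The medians run from −0.22 to 0.11, and the widest spread is among the inducers of PTGS2.

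Genes elsewhere in the genome whose 4 values followed those of a member most closely were sought by Euclidean distance in log2(FPKM + 1) after removal of each gene's own mean. Nearest to PTGS2 were CNIH3, ANKRD1 and F11R, at distances of 0.172, 0.305 and 0.317, where the median tested gene was at 2.22. Nearest to PTGFR were SH2D5, CCDC138 and KBTBD8, at 0.0994 to 0.124 (median 1.15). Nearest to PTGER2 were ECM1, S1PR3 and MED8, at 0.0231 to 0.0401 (median 0.885). Each median distance was near the size of the member's own difference, since most tested genes differed little between the groups. It therefore does not measure how unusual the nearest genes are. ANKRD1, F11R, CCDC138 and KBTBD8 reached the minimum only through their miRs libraries. With 4 libraries many genes can share a pattern.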

How the data were processed

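RNA of 4 MRC5 libraries (2 control, 2 miRs) was measured. Per the file headers, the values the authors deposited are FPKM, 1 for each symbol in each library. Libraries were made from total RNA with a stranded mRNA kit, per the labels' protocols, and processed, per the submitters' processing notes, with Cuffdiff 2.2.1, SAMtools 0.1.18, TopHat2 2.1.1 and Bowtie2 2.2.8 (build hg19). Annotation, strand setting and scaling were not given in the sources used here. FPKM are not counts and whole reads were not recovered, so no count test was run.

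Groups came from the treatment label. The 11860 genes averaging at least 1 FPKM were tested on log2(FPKM + 1) with limma 3.58.1 in R 4.3.3, with a variance trend, 2-sided, Benjamini-Hochberg adjustment over all tested genes, a threshold of 0.05 and 2 residual degrees of freedom. The fit was tested on simulated data. Promoter windows of 250 bases (RefSeq) were searched for motifs on both strands. Groups do not overlap where both libraries of 1 lie beyond both of the other. Means carry the SD, and differences the standard error of the fit.

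The members and gene lists were chosen with earlier results of these data known. Named are the 10 members, any pathway gene past the threshold, in each list up to 4 genes with the largest differences and no overlap, those at a mean of at least 50 FPKM against their list's majority, and the 3 nearest patterns of the 3 members that differ most. Other names were chosen after their values were seen. Alternatives were other pseudocounts, minimums, scalings, no trend, a replicate block, a minimum difference and each library left out.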

Additional observations from a re-analysis of the deposited data

How the results depend on the processing

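Depth is unknown and each group has 2 libraries, which limits every statement above. The number of genes called in limma was 29 of 11860. It was 0 with no minimum (3338 genes at an unadjusted p under 0.05) and 99 with the replicate block, and leaving out 1 library each gave 0 to 3906, the lowest without control replicate 1 and the highest without miRs replicate 2. With the block 1 member passed and with 1 library left out 0 to 6 did, counts that test nothing, since this contrast chose the members. Of the other pathway genes 0 passed with the block or with any alternative that kept all libraries, and 0 to 34 with 1 left out. The labels do not say whether a shared replicate number marks a pairing or batch, and 2 pairs cannot settle it. Across 11860 genes, the difference of replicate 1 and replicate 2 in control correlated at 0.201 with that in miRs. Fits without 1 library assume that the lone library varies like the other group. Among the members, the log2 difference of PTGES2 was 0.02 when miRs replicate 1 was left out and −0.30 when the other was, and that of PTGS1 −0.44 and 0.26. With a pseudocount of 0.1 PTGS2 went to 3.82 and PTGES to −0.97.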

Other observations

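A few pathway genes differed more by replicate number than by group. PTGDS, the synthase of prostaglandin D, was at 22.9 FPKM in control replicate 1 and 17.5 FPKM in miRs replicate 1, and at 6.36 and 4.01 FPKM in the replicates numbered 2. The fatty acid desaturase FADS2, which acts on the way to arachidonic acid, went the other way, at 53.3 and 31.4 FPKM in the replicates numbered 1 and at 85.9 and 85.7 FPKM in those numbered 2. FADS1 was at 17.3 and 8.79 FPKM against 24.2 and 20.2 FPKM. These 3 genes were picked after their values were seen, and whether a shared number marks a shared batch is not stated.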
